A study of Arabidopsis thaliana with 4 samples.

Results

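The germin-like cupin cluster is a tandem array of 8 genes on chromosome 5 of Arabidopsis thaliana, taken by locus identifier from AT5G39100 to AT5G39190 out of the 32548 genes in the deposited table. All 8 members are in the table, and the reference annotation names germin or cupin for each of them: GLP6 (AT5G39100) and GER2 (AT5G39190, germin-like protein 2) carry symbols, and the other 6 are annotated as RmlC-like cupins. mRNA was sequenced from seedlings aged 2 weeks, in 2 libraries labelled cmt3-/- and 2 labelled tcx5-/- tcx6-/- cmt3-/-. Every library thus carries the cmt3 label, the single difference in label is tcx5 with tcx6, and no library without the cmt3 mutation was analysed here. Growth was on MS plates under long days, and the labels give neither alleles nor whether replicates were separate batches of plants, so the spread between replicates may be technical. The members were chosen by their normalized signal in these same cmt3 and labelled tcx5/6;cmt3 libraries, gene by gene and as a sum, so their genotype difference is given below as a description with no test, and no p-value is attached to a member.

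Germins and germin-like proteins are small secreted glycoproteins of the cupin fold, a beta barrel that holds a metal ion, usually manganese. Cereal germins act as oxalate oxidases that release hydrogen peroxide in the cell wall, and germin-like proteins of other plants have been linked to superoxide dismutase activity, wall reinforcement and defence. The notes of the reference annotation mention manganese for 8 of the 8 members. TCX5 and TCX6 are CXC-domain proteins of the DREAM complex, which binds promoters of cell cycle genes and represses them, and CXC domains are known to bind the letters TTTGAA. CMT3 is the chromomethylase that maintains CHG methylation.

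The members fell into 2 groups by sequence. In the TAIR10.1 annotation all 8 lie on the minus strand within 40611 bases, each with 2 exons and 666 or 669 coding bases. GLP6, AT5G39110, AT5G39120, AT5G39150 and AT5G39180 shared 89.5% to 99.8% of their coding bases with one another, and AT5G39130, AT5G39160 and GER2 shared 97.6% to 99.9%. Between these groups the identity was 77.7% to 78.7%. From AT5G39120 on, the groups alternate along the chromosome: AT5G39130, AT5G39160 and GER2 each stand next to a gene annotated as myb-like protein Q (AT5G39140, AT5G39170 and AT5G39200), and AT5G39150 and AT5G39180 are each flanked by an annotated pseudogene of 4493 and 4478 bases. No germin-like gene outside the cluster was closer than 69.6% to a member, and for each of the 8 members the closest one was AT3G05950.

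**Figure D1:**
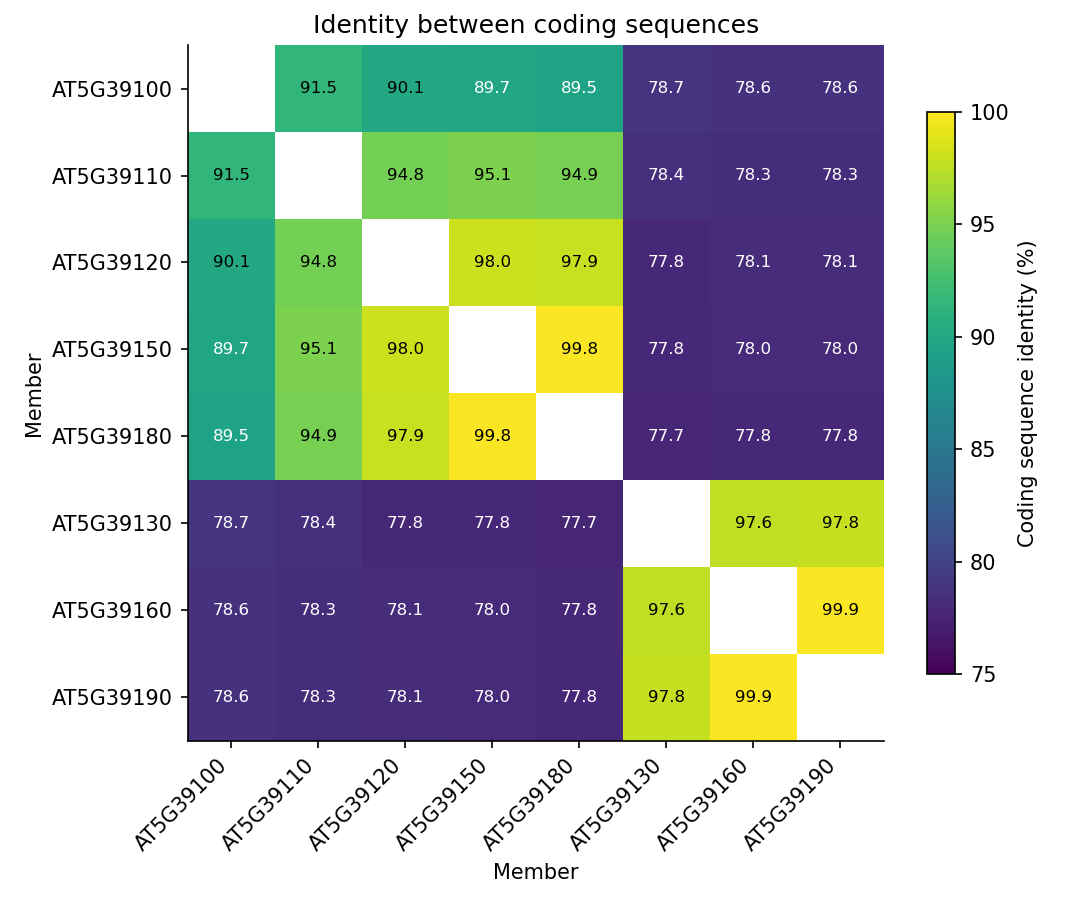
Identity between the coding sequences of the 8 members, in percent, ordered by sequence group. The 5 genes from AT5G39100 to AT5G39180 at the upper left and the 3 genes AT5G39130, AT5G39160 and AT5G39190 at the lower right form blocks of at least 89.5% and 97.6%, with 77.7% to 78.7% between blocks.

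This likeness limits how reads can be assigned. Of the 100-base windows in the annotated transcripts, 76.5% of those in AT5G39150 and 76.7% of those in AT5G39180 occurred letter for letter elsewhere. For AT5G39160 and GER2 the shares were 68.5% and 70.3%. They were 23.9% for AT5G39120, 17.1% for AT5G39130, 7.33% for AT5G39110 and 0 for GLP6. With 50-base windows they were 47.5% for AT5G39120, 34.5% for AT5G39130, 20.3% for AT5G39110 and 0.395% for GLP6. AT5G39150, AT5G39160, AT5G39180 and GER2 were then at 84.9% to 89.6%. The read length and the treatment of reads with several matches are not stated in the labels or processing notes. The split within the pairs AT5G39150 with AT5G39180, and AT5G39160 with GER2, is therefore uncertain. The values of AT5G39120 and AT5G39130 are exposed in part, more so if reads are short. Those of GLP6 and AT5G39110 are the least exposed to shared sequence.

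Promoter sequences are shown because most members differ more there than in their coding sequence: over the 400 bases before the start codon, GLP6, AT5G39110, AT5G39120, AT5G39150 and AT5G39180 were 61.5% to 100% identical to one another, and 48.1% to 51.6% identical to the other 3. Each stretch runs from 250 bases before to 50 bases after the annotated gene start in TAIR10.1 (RefSeq annotation, minus strand, written 5′ to 3′), and capitals mark matches to TTTGAA in either orientation. Annotated starts differ between members, so the windows are not aligned to each other.
GLP6, chr5:15653979-15654278: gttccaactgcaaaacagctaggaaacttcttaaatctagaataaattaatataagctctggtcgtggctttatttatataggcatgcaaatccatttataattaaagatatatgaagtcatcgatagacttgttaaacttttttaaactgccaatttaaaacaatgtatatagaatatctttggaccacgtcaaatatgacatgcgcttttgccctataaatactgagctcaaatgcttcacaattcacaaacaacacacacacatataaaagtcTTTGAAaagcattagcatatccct
AT5G39110, chr5:15658583-15658882: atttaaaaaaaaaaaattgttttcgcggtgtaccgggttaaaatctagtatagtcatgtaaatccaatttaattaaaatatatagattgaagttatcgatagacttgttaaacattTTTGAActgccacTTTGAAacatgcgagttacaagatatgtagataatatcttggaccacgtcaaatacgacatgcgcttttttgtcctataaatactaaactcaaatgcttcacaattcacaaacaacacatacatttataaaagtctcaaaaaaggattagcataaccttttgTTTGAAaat
AT5G39120, chr5:15663478-15663777: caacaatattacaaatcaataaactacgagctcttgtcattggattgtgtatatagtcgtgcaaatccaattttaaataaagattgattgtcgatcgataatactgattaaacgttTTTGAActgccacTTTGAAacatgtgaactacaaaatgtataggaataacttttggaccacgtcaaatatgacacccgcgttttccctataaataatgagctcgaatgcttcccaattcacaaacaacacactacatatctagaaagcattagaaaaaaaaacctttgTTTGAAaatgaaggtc
AT5G39130, chr5:15666423-15666722: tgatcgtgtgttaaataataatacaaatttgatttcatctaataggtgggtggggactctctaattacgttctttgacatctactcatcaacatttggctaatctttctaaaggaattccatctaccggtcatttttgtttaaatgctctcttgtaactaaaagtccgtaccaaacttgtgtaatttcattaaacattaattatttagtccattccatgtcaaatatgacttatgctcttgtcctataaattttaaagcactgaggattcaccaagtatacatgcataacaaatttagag
GER2, chr5:15693686-15693985: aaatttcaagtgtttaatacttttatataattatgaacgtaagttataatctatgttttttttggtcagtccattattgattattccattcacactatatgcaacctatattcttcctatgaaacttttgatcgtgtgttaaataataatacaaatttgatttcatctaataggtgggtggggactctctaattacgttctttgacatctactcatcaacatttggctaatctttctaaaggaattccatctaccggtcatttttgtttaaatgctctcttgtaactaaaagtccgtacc

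A pair of TTTGAA matches 7 bases apart was found in 4 of the 8 member promoters, those of AT5G39110, AT5G39120, AT5G39150 and AT5G39180. The same 19 bases occurred 4 times in the TAIR10.1 genome, on either strand, and each copy lay ahead of a member: AT5G39110 at chr5:15658748-15658766, AT5G39120 at chr5:15663643-15663661, AT5G39150 at chr5:15670947-15670965 and AT5G39180 at chr5:15684511-15684529. It began 175 to 182 bases before the start codon in all 4. The closest stretch in GLP6 was 3 edits away, and the closest stretch in AT5G39130, AT5G39160 and GER2 was 6 edits away, at similar distances from the start codon. The stretches are set out here with capitals for letters that match the paired TTTGAA.
AT5G39110, AT5G39120, AT5G39150 and AT5G39180: TTTGAActgccacTTTGAA
GLP6: TTTaAActgccaaTTTAA
AT5G39130, AT5G39160 and GER2: TTTaAAtgctctcTTGtA

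TTTGAA alone is common. It was in 43.7% of all 27443 protein-coding promoter windows of this length and in 5 of 8 members. The pair with 7 bases between (both orientations) was in 34 windows, or 0.124%, and 4 of these 34 belong to members. The spacing of 7 bases was itself taken from a member promoter. The 4 members with the pair are also related copies, not independent cases. The 0.124% is therefore no background for them, and nothing is read from the comparison. The other motifs searched on both strands had no match in the 8 member promoters: TTTCCCGC, TTTGGCGC, TTTCGCGC or TTTGCCGC (E2F-type sites, in 1.76% of all promoters), TTGACC or TTGACT (W-boxes, 32.4%), CACGTG (the G-box, 7.68%) and AACGG (the core of mitosis-specific activator elements, 24.7%). Every match to the pair holds TTTGAA matches by construction. A match describes letters only, and the grouping of members by this pair was made after their values had been seen.

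The normalized signal summed to between 38264500 and 41106100 in each of the 4 libraries, and the number of reads behind it is unknown. The label check was mixed: TCX5 (AT4G29000) fell from 703 ± 38.2 to 249.7 ± 1.22 (SD, n = 2 each, log2 change -1.49, limma adjusted p = 0.00121). TCX6 (AT2G20110) instead rose from 189 ± 12.6 to 976 ± 81.9 (log2 change 2.36, limma adjusted p = 0.00044). The alleles are not given, so this rise in RNA neither bears out nor contradicts the tcx6 label. CMT3 rose from 742 ± 113 to 1316 ± 38.3 (log2 change 0.83, limma adjusted p = 0.00985). The second genotype is therefore called the labelled triple mutant, and every direction here rests on that label. All 3 calls were lost without either labelled triple mutant library (adjusted p of 0.138 to 0.303), and that of CMT3 also in limma without the mean-variance trend (0.111).

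The members as a sum were at 569 and 905 in the cmt3 libraries, against 174 and 169 in those labelled triple mutant. The groups did not overlap: the lowest cmt3 library was 3.27 times the highest labelled triple mutant library. The means were 737 ± 238 and 172 ± 3.62 (SD, n = 2 each), so 23.3% of the cmt3 level was left. The log2 ratio of these group means, each with 1 added, was -2.10. In RNA from seedlings in bulk, fewer cells of a type and less RNA per cell cannot be told apart. Gene by gene, 7 of 8 members were lower in both labelled triple mutant libraries than in either cmt3 library, a state found for 25.7% of the 23666 tested genes. A log2 change of -1 or less was found for 7 of 8 members and for 3.69% of tested genes. Both counts come from the contrast that brought the cluster forward, so nothing is read from them. All 8 members passed the filter on low values, which asked for at least 1 unit of signal in at least 2 of the 4 libraries, but AT5G39150 and AT5G39180 would not have passed on the labelled triple mutant libraries alone.

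**Figure D2:**
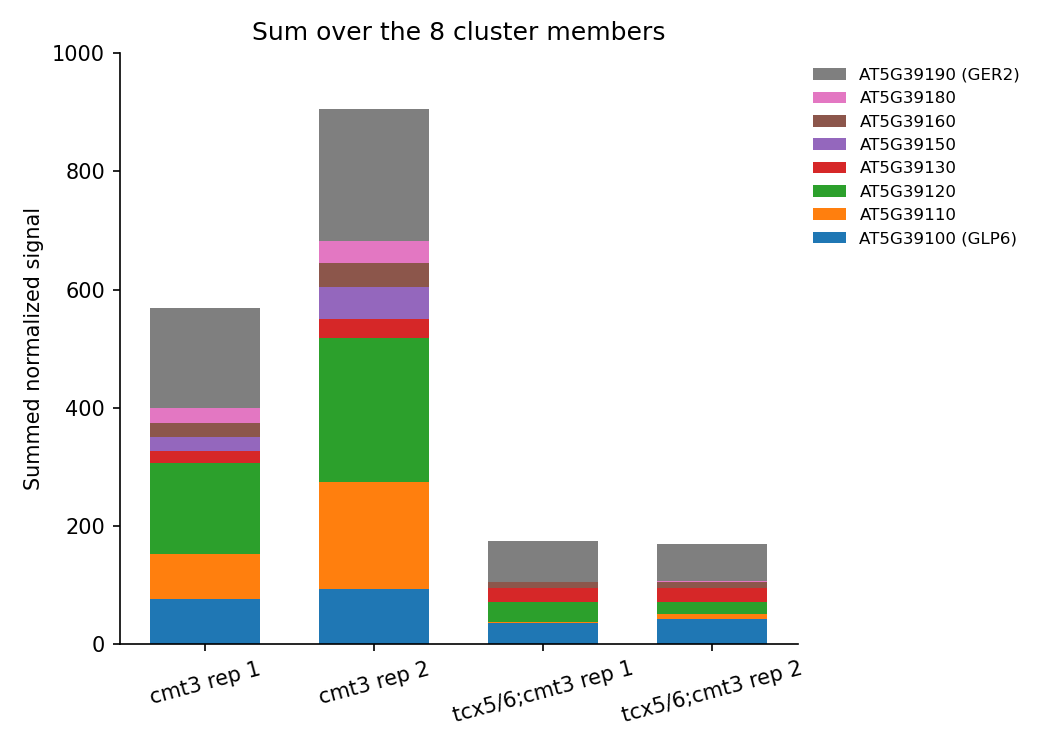
Summed normalized signal of the 8 members in each library, as stacked bars that start at 0, with 1 colour per gene. The cmt3 bars reach 569 and 905 and the labelled triple mutant bars 174 and 169, and AT5G39120, GER2 and AT5G39110 lose the most height.

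The 4 members with the 19-base run, a grouping made after the values were seen, were the ones furthest below cmt3. They are related copies picked from this same contrast, so no link between the run and the difference is read from this. AT5G39110 was at 76.1 and 181 in cmt3, against 1.75 and 8.23 with the triple mutant label. Each cmt3 value was at least 9.25 times each labelled triple mutant value, and the log2 change was -4.56. AT5G39120, which with GER2 had the highest values in cmt3, was at 154 and 242 against 33.2 and 19.2. It kept 13.2% of its cmt3 mean, with a log2 change of -2.89, and the groups were 4.65-fold apart at their closest. The near-identical AT5G39150 and AT5G39180 were close to absent in the labelled triple mutant. AT5G39150 was at 24.2 and 53.8 in cmt3, was listed at 0 in labelled triple mutant replicate 1 and was at 1.04 in replicate 2. AT5G39180 was at 25.8 and 36.5 in cmt3, was likewise listed at 0 in replicate 1 and was at 2.16 in replicate 2. Taken as a pair, they were at 49.99 and 90.3 against 0 and 3.20. A split of reads between the 2 genes does not affect this sum, though shared reads may have been dropped. Reads shared with AT5G39120, 98.0% and 97.9% identical to them in coding sequence, may also have been assigned to the wrong side. The single-gene log2 changes of AT5G39150 and AT5G39180, -4.70 and -4.16, depend on the constant added before taking logs. They became -6.75 and -6.02 with a constant of 0.1. The 4 genes together were at 280 and 513 in cmt3, against 34.9 and 30.7 with the triple mutant label.

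**Figure D3:**
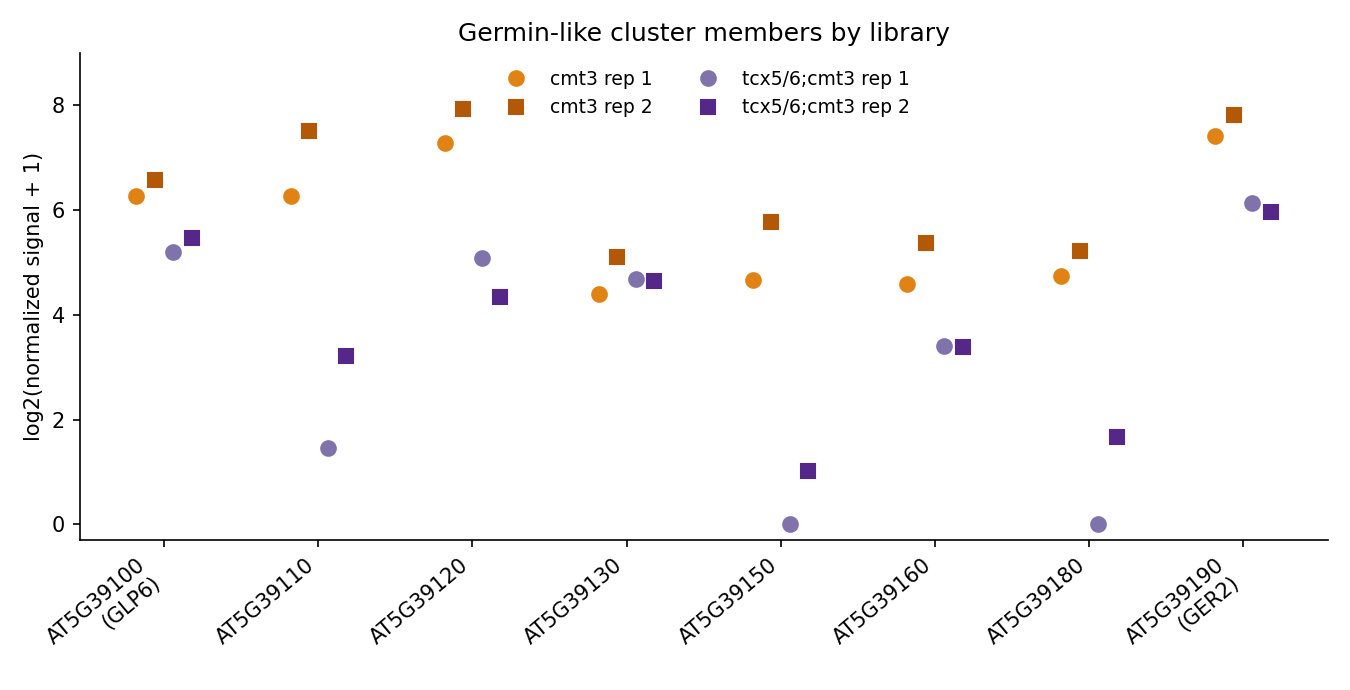
Log2(normalized signal + 1) of each member in each library, with cmt3 in orange, the labelled triple mutant in purple, circles for replicate 1 and squares for replicate 2. Orange points lie above purple points for every gene except AT5G39130, and the lowest purple points are those of AT5G39110, AT5G39150 and AT5G39180.

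The remaining member of that sequence group, GLP6, had the smallest difference within it. It was at 75.9 and 94.3 in cmt3, against 36.0 and 43.5 with the triple mutant label, with 46.7% of the mean left and a log2 change of -1.08. GLP6 and AT5G39110 had near-equal values in cmt3 replicate 1 (75.9 and 76.1), but AT5G39110 was higher in cmt3 replicate 2 (181 against 94.3). In the labelled triple mutant GLP6 was higher in both libraries. Their coding sequences were 91.5% identical, and the 400 bases before their start codons 64.9%.

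Of the group with a different promoter, GER2 was at 170 and 224 in cmt3, against 69.0 and 61.5 with the triple mutant label, with 33.1% left and a log2 change of -1.57. AT5G39160 was at 23.2 and 40.4 against 9.59 and 9.47, with 30.0% left and a log2 change of -1.59. As a pair these 2 genes were at 193 and 264 against 78.6 and 71.0, and the groups did not overlap. AT5G39130 was the exception in the cluster. It was at 20.2 and 33.6 in cmt3, against 24.7 and 23.9 with the triple mutant label, so the groups overlapped, and its log2 change of -0.10 ranged from -0.45 to 0.25 over the alternatives. The 400 bases before its start codon were 98.0% and 98.5% identical to those of AT5G39160 and GER2.

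AT5G39110 made up 13.4% and 19.98% of the cluster signal in cmt3, against 1.00% and 4.87% with the triple mutant label. The share of GER2 was 29.8% and 24.7% against 39.6% and 36.4%, and that of GLP6 was 13.3% and 10.4% against 20.7% and 25.7%. AT5G39130 held 3.55% and 3.71% in cmt3 and 14.2% in each of the other libraries. Shares of one sum are bound to each other, so a smaller share of AT5G39110 raises the others.

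Per kilobase of exon, AT5G39120 stood highest in cmt3 at 239 ± 74.8 (SD, n = 2), followed by GER2 at 181 ± 35.2, AT5G39110 at 156 ± 90.2 and GLP6 at 105 ± 16.0, and each of these overlapped the next in its replicate values. The lower 4 were AT5G39150 at 43.8 ± 23.5, AT5G39180 at 34.9 ± 8.50, AT5G39130 at 31.1 ± 10.9 and AT5G39160 at 30.7 ± 11.8, which overlapped one another and lay below all 4 higher genes in both libraries. The order was different in the labelled triple mutant. GER2 led at 60.0 ± 4.89 per kilobase, followed by GLP6 at 49.2 ± 6.57, AT5G39120 at 31.6 ± 11.9 and AT5G39130 at 28.1 ± 0.595. GER2 and GLP6 did not overlap there, and neither did GLP6 and AT5G39120, whereas AT5G39120 and AT5G39130 did. Below them were AT5G39160 at 9.22 ± 0.0771 and AT5G39110 at 6.07 ± 5.57, which overlapped. Then came AT5G39180 at 1.21 ± 1.71 and AT5G39150 at 0.584 ± 0.825, with AT5G39110 overlapping AT5G39180. The full exon length was used, without correction for shared sequence, and the scaling of the signal is unknown. The places of AT5G39150, AT5G39180, AT5G39160 and GER2 are thus uncertain, with 76.5%, 76.7%, 68.5% and 70.3% of their 100-base windows found elsewhere.

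All 8 members were higher in cmt3 replicate 2 than in replicate 1, by 1.24-fold to 2.38-fold, and root markers went the same way. The part of root content in the genotype difference was not tested. Of 19 root genes (root hair, endodermis and uptake lists), 18 were higher in cmt3 replicate 2, with a median ratio of 1.70. Of 7 leaf photosynthesis genes, 0 were. Of the 25 germin-like genes outside the cluster, 13 were, with 6 of the 25 at 0 in all libraries. The share over all tested genes was not worked out, so these counts stand without a background. The summed endodermis markers, which include the Casparian strip gene CASP1, were at 4320 and 6433 in cmt3, against 4392 and 3990 with the triple mutant label. The summed root hair and epidermis markers were at 3507 and 5455 against 4743 and 3446, so the groups overlapped for both lists, and no gene of the 3 root lists was at 0 in all libraries. The cluster sum equalled 13.2% and 14.1% of the endodermis sum in cmt3, against 3.97% and 4.24% with the triple mutant label. Against the root hair sum it was 16.2% and 16.6% in cmt3, against 3.67% and 4.91% in the labelled triple mutant. The 2 genotypes did not overlap in either ratio, but the cluster sum in both ratios was picked for its difference between them. Nothing is read from these ratios, which were chosen after the values were seen.

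Limma called 0 of the 19 root genes, with 0 at an unadjusted p under 0.05. Over all 23666 tested genes 8.47% were called, and 4840 had an unadjusted p under 0.05 in limma. A count of 0 called among 19 is near the 8.47% background. By unadjusted p, at 4840 of 23666 genes, the background is higher, and the 0 of 19 lies below it. The root genes had a median ratio of 1.70 between the cmt3 replicates, a spread that limits what limma could call. The absence of calls therefore does not show equal root content. The median log2 change of the root genes was -0.11 beside -0.02 for all tested genes. The root genes with the smallest p in their lists included EXPA18, a root hair expansin (597 ± 183 and 426 ± 43.1, SD, n = 2 each, limma adjusted p = 0.315), CASP1 (1829 ± 709 and 1253 ± 157, limma adjusted p = 0.343) and PYK10, the abundant root beta-glucosidase (limma adjusted p = 0.351). Without cmt3 replicate 1, 2 of the 19 root genes were called lower, among them PYK10 (limma adjusted p = 0.0473). The cluster sum had a log2 change of -2.39 without cmt3 replicate 1 and -1.72 without cmt3 replicate 2. Limma also called 0 of the 7 leaf genes, with 0 at an unadjusted p under 0.05, and 0 called among 7 is near the same background.

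No germin-like gene elsewhere in the genome was called. The list held 25 genes, of which 16 were tested and 6 were at 0 in all 4 libraries. Limma called 0 higher and 0 lower, where 8.47% of all tested genes were called, with 1 gene at an unadjusted p under 0.05 and 0 called without the trend. A count of 0 among 16 is near that background. Their median log2 change was -0.10 beside -0.02 for all tested genes, against -2.24 for the cluster members, which had been picked for it. GER3 (AT5G20630), the most abundant of them, was at 44117 ± 5987 in cmt3 and 40514 ± 283 in the labelled triple mutant (SD, n = 2 each; limma adjusted p = 0.791). GLP5 (AT1G09560), a germin-like protein that acts at plasmodesmata in control of root growth, was at 5522 ± 1213 and 5034 ± 220 (limma adjusted p = 0.745). AT3G10080 (limma adjusted p = 0.777) and GLP10 (limma adjusted p = 0.771) came next by level per kilobase, with log2 changes of -0.09 and -0.10.

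Another tandem set of germin-like genes lies on the same chromosome, ahead of the cluster. Its expressed members were AT5G38940, at 310 and 388 in cmt3, against 481 and 423 with the triple mutant label (log2 change 0.38 ± 0.16 SE, limma adjusted p = 0.262), and AT5G38930, at 39.4 and 25.6 against 45.5 and 72.1 (log2 change 0.83 ± 0.41 SE, limma adjusted p = 0.333). Both were higher in the labelled triple mutant libraries without overlap and did not pass the test. AT3G05950, the closest relative of the members by coding sequence, was at 0.542 and 26.8 in cmt3, against 51.0 and 58.9 with the triple mutant label (log2 change 3.09 ± 1.25 SE, limma adjusted p = 0.236). It was called higher without cmt3 replicate 2 (log2 change 5.18, limma adjusted p = 0.0226), where the cmt3 level is that of replicate 1 alone. These 3 genes were singled out after their values were seen.

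**Figure D4:**
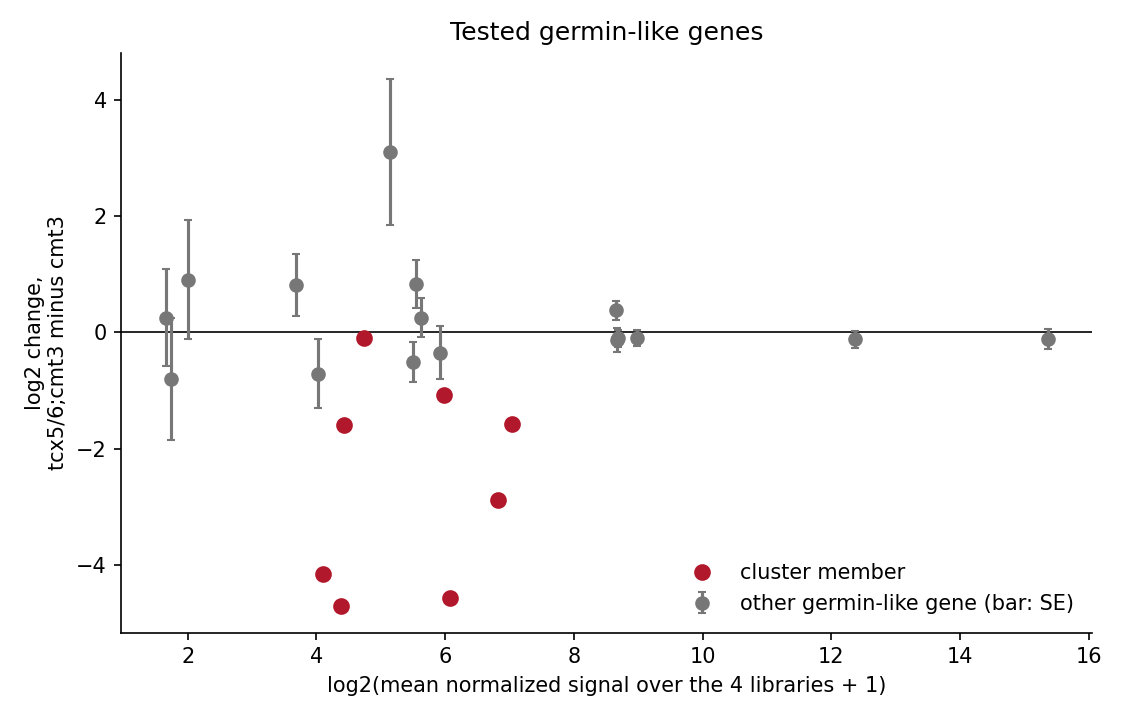
Log2 change from cmt3 to the labelled triple mutant against mean level for the 8 members (red) and the 16 tested germin-like genes outside the cluster (grey, bars are SE from limma). None of the 16 grey genes passed the test, and 7 red genes lie at -1.08 or lower.

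None of the genes beside the cluster was called. The 22 neighbouring loci comprised 2 between members and 10 on each side, and 14 of them were tested. Limma called 0 higher and 0 lower, with 2 at an unadjusted p under 0.05 and 0 called without the trend. Over all tested genes 8.47% were called, so a count of 0 among 14 is near the background. Log2 changes ran from -0.72 to 0.59. The nearest tested gene on the left, the acyltransferase family gene AT5G39090, was at 60.8 and 50.2 in cmt3, against 60.5 and 47.3 with the triple mutant label (log2 change -0.05, limma adjusted p = 0.965). The nearest tested gene on the right, CRR7 (AT5G39210), which acts in assembly of the chloroplast NDH complex, was at 1399 and 1375 against 1198 and 1290 (log2 change -0.16, limma adjusted p = 0.364). The genes annotated as myb-like protein Q, AT5G39140, AT5G39170 and AT5G39200, were listed at 0 in all 4 libraries. The receptor kinase family gene AT5G38990 passed with quantile normalization (log2 change -0.41, limma adjusted p = 0.047) or without cmt3 replicate 2 (limma adjusted p = 0.029), as did the protein kinase gene AT5G39030 without that library (limma adjusted p = 0.0277), while AT5G39080 was called higher without cmt3 replicate 1 (limma adjusted p = 0.0432).

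**Figure D5:**
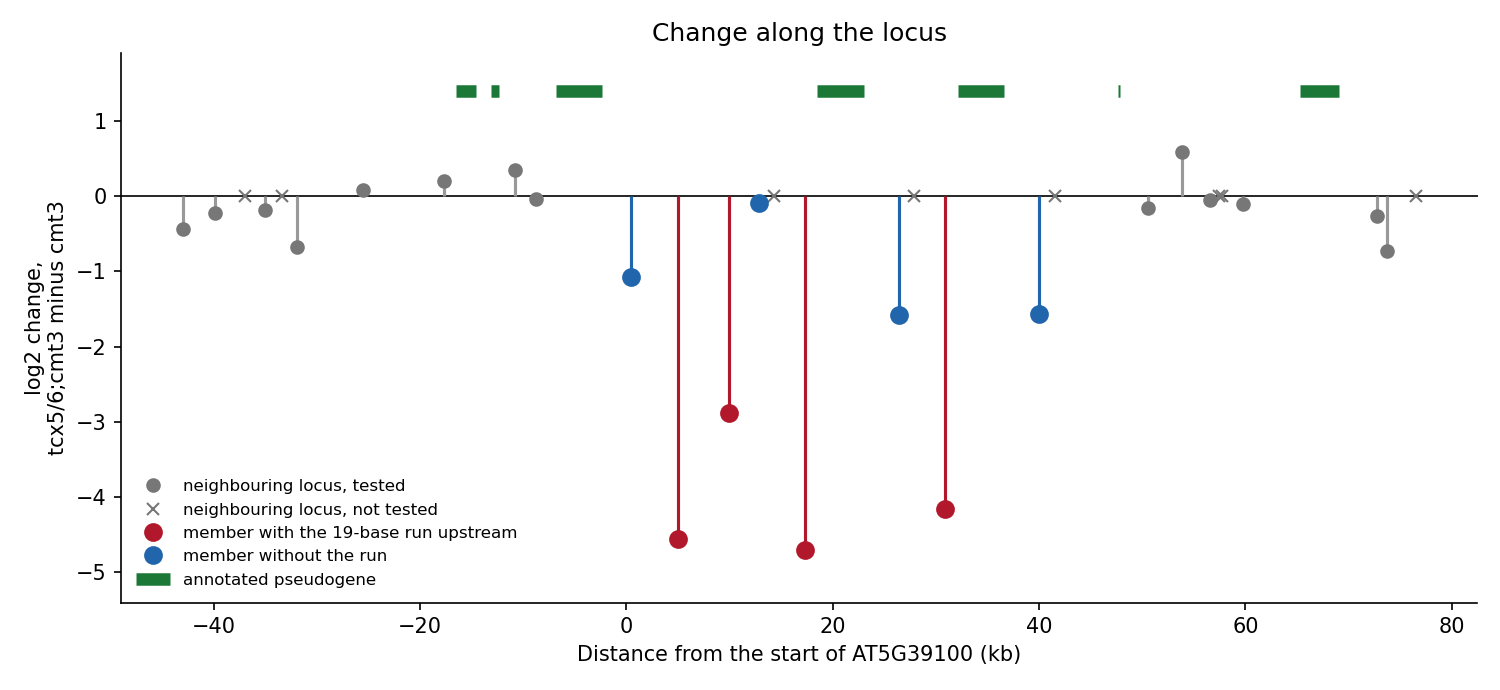
Log2 change from cmt3 to the labelled triple mutant by distance in kilobases from the start of AT5G39100, for members with the 19-base run (red), members without it (blue) and neighbouring loci (grey, crosses on the 0 line for loci not tested), with annotated pseudogenes as green bars above. The red members lie at -2.89 to -4.70, the blue ones at -0.10 to -1.59 and the neighbours between -0.72 and 0.59. The split into red and blue was made after the values were seen.

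The spaced TTTGAA pair was also looked up outside the cluster. Of the 30 other promoters that held it, 20 belonged to tested genes, and limma called 3 of these higher and 0 lower, where 6.15% of all tested genes were called higher and 2.32% lower. Their median log2 change was 0.12 beside -0.02 for all tested genes. The 3 were the meiotic gene SPO11-2 (3.01 ± 2.35 to 254 ± 10.6, SD, n = 2 each, limma adjusted p = 0.0013), the DNA ligase-like gene AT2G33793 (115 ± 7.2 to 473 ± 23.6, limma adjusted p = 0.00118) and the aspartyl protease gene AT1G49050 (1448 ± 60.1 to 1858 ± 31.0, limma adjusted p = 0.0425). In these genes the direction was opposite to that of the 4 members with the pair.

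Outside the germin-like family, the profiles most like that of the cluster sum were those of AT3G01830, a calcium-binding EF-hand gene, and AT1G34440, AT2G43390, AT1G37113 and AT2G09575, for which the annotation gives no function. Likeness was the root mean square difference of log2(value + 1) over the 4 libraries, each profile centred on its mean, and ran from 0.0805 to 0.113 for these genes. AT3G01830 was at 82.2 and 126 in cmt3, against 25.6 and 21.2 with the triple mutant label. AT1G37113 and AT2G09575 had identical values in every library, near the floor: 2.99 and 4.43 in cmt3, against 0 and 0 with the triple mutant label. Their likeness depends on the constant added before taking logs. The log2 change of each was -2.22, and -5.22 with a constant of 0.1. With 4 libraries in 2 groups, many genes can have a like profile.

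Superoxide dismutase genes, whose activity some germin-like proteins share, were mostly not called. Of 7, limma called CSD1 lower (1379 ± 71.7 to 994 ± 64.9, SD, n = 2 each, log2 change -0.47, limma adjusted p = 0.0294) and none higher, with FSD1 at 31563 ± 318 and 50388 ± 5001 (limma adjusted p = 0.0596). CSD1 was no longer called when limma was run without the trend, with the replicate number as a term and without any 1 library (limma adjusted p of 0.0506 to 0.416), and FSD1 gained one with quantile normalization (0.0153) and with a filter at 5 (0.0488). Of 4 salicylic acid markers, 2 rose: the synthesis gene EDS16 (398 ± 47.7 to 1012 ± 173, limma adjusted p = 0.00404) and BGL2, a glucanase (307 ± 118 to 1026 ± 382, limma adjusted p = 0.0258). Of 5 jasmonate markers, 3 fell: OPR3 (3949 ± 408 to 2267 ± 87.4, limma adjusted p = 0.00455), VSP2 (7360 ± 1496 to 3656 ± 66.9, limma adjusted p = 0.00825) and VSP1 (limma adjusted p = 0.0114). The defensin gene PDF1.2 of the same list was higher without overlap, at 77.3 ± 49.9 and 259 ± 75.6 (log2 change 1.86, limma adjusted p = 0.072), and LOX2 was at 78971 ± 23511 and 61251 ± 1036 (limma adjusted p = 0.571). Of the salicylic acid markers, PR1 had a log2 change of 2.89 (limma adjusted p = 0.0525) and PR5 one of 0.84 (limma adjusted p = 0.195). VSP1, PDF1.2, LOX2, PR1 and PR5 were named after their values were seen. Each of these 5 hormone calls was lost in limma without the trend and without either labelled triple mutant library. EDS16 and BGL2 also lost theirs without cmt3 replicate 2 (limma adjusted p = 0.0512 and 0.131), and BGL2 without cmt3 replicate 1 (0.0735). Over all tested genes limma called 6.15% higher and 2.32% lower. The superoxide dismutase and hormone lists are short and were chosen with earlier results of these data known. No shift of a pathway is therefore read from the counts within them. The part of these hormone markers in the cluster's difference was not tested.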

How the data were processed

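The values used are the authors' deposited table of normalized signal per gene, with 1 column per library; the submitters' processing notes name HISAT2, edgeR and the TAIR10 build without versions or roles. Not given in the sources used here are the scaling of the signal, the counting of reads with several matches and the use of strand, so the depth is unknown and no counting interval is given. The table also has 4 per-sample columns of no sample given here, which were not used. Values under 1e-10 were set to 0. Genes that reached 1 unit in at least 2 of the 4 libraries were kept (23666 of 32548). They were tested with limma 3.58.1 in R 4.3.3 on log2(value + 1) with a mean-variance trend, without a replicate term, at a Benjamini-Hochberg adjusted p under 0.05, which called 1456 genes higher and 549 lower. The script was tested on simulated data. With 2 libraries on each side, the smallest two-sided p of an exact permutation test is 0.333, and such tests were left out.

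Sequences, gene models and neighbours came from the RefSeq TAIR10.1 genome with Python 3.11.15 and Biopython 1.88, and all 32548 identifiers matched. The members and lists, including the root, leaf, superoxide dismutase and hormone lists, were chosen with earlier results of these data known. Named genes were all members, the germin-like genes highest per kilobase of exon, those of smallest p in each list, and the 5 profiles nearest the cluster sum. Alternatives were quantile normalization, median centring, other filters and constants, no trend, a replicate term and leaving out each library. Not every root gene and promoter sequence is reported here.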

Additional observations from a re-analysis of the deposited data

How the results depend on the processing

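Over the alternatives run, 7 members kept a negative log2 change, and AT5G39130 ranged from -0.45 to 0.25. The other filters, no trend and the replicate term cannot alter a member's log2 change. As the members were picked from this contrast, the kept sign is description only. The log2 change of the cluster sum ran from -2.39 to -1.72 when 1 library was left out. It was -2.06 as the mean of the log2 differences within replicate numbers (replicate block), and -2.10 as the log2 ratio of the group means. These 2 values differ by averaging logs or averaging signal, not by the pairing. Same-numbered libraries did not deviate together: over 23666 genes, the replicate 1 deviations of the 2 genotypes from their group means had a correlation of 0.0006. The replicate block took the calls in the marker and control lists from 2 to 4 higher and from 4 to 3 lower. A filter at 5 also gave 4 higher. Without the trend there were 586 genes higher and 135 lower over the genome, and 0 higher and 0 lower in those lists. At an adjusted p under 0.01 there were 780 higher and 173 lower. Leaving out 1 library gave 0 to 3068 genes higher and 0 to 2568 lower. The counts of 0 came from limma without either labelled triple mutant library, with 2407 and 2490 genes at an unadjusted p under 0.05. Without cmt3 replicate 1 or 2 there were 1182 or 1281 higher and 341 or 530 lower. Redoing the filter on 3 libraries, chosen after seeing the data, gave 2999 and 3068 higher and 2184 and 2568 lower without cmt3 replicate 1 or 2, and 757 and 720 higher and 212 and 217 lower without labelled triple mutant replicate 1 or 2. Leaving out 1 library gave 0 to 1 other germin-like genes higher, 0 to 1 neighbours higher and 0 to 2 lower, and quantile normalization gave 1 neighbour lower. In the marker and control lists it gave 0 to 3 higher and 0 to 5 lower. Under the same omissions the log2 change ran from -1.54 to -1.43 for TCX5, 2.28 to 2.45 for TCX6 and 0.68 to 0.99 for CMT3, which without the trend was 0.83 (limma adjusted p = 0.111). Unknown depth, 2 libraries per genotype and shared sequence limit the single-gene values.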
